A study of Drosophila melanogaster with 9 samples.

Results

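The 10 heat shock and chaperone genes described here were followed in Drosophila melanogaster across 3 stages of a brain tumour: the small heat shock protein genes Hsp22, Hsp23, Hsp26, Hsp27 and Hsp67Ba, the inducible Hsp70 family gene Hsp68, the Hsp90 gene Hsp83, the cofactor genes DnaJ-1 and stv, and Hsf, which encodes their shared transcription factor. They were chosen by name and role, and all 10 are among the 16727 gene symbols of the deposited tables. Of the 10, 9 passed the filter on low counts that left 9082 genes to test, and Hsp22 did not. Every group carried the same genotype, GFP-marked flip-out clones under an actin driver that overexpressed HA-tagged E(spl)mγ and HA-tagged deadpan (dpn), both repressors that keep neural stem cells (neuroblasts) from differentiating. The primary group held GFP-positive cells from 150 brains per replicate of 3rd instar larvae, 4 days after clone induction, which were dissociated with collagenase and sorted by flow cytometry. The T0 group held GFP-positive masses that grew for 8 to 10 days in adult w1118 hosts after the first transplantation, and the T3 group those of transplantation round 4, each from 25 hosts per replicate. These masses were neither dissociated nor sorted, as far as the labels say. Each group had 3 libraries, replicates 1, 2 and 4 for primary and T3 and replicates 2, 3 and 4 for T0, each a pool of animals.

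Cells meet heat, toxins and misfolded protein by releasing the heat shock factor Hsf from inhibition, upon which it binds heat shock elements and drives a small set of genes very strongly. Small heat shock proteins hold unfolding proteins in a soluble state, Hsp70 proteins refold them with J-domain partners that trigger their ATP hydrolysis and exchange factors that reload them, and Hsp90 completes the folding of kinases, receptors and other clients. Some of these genes are also active without stress, in larval nervous tissue and in the ovary among others, and dissociation of tissue is a known trigger of their transcription. Only the primary cells went through dissociation and sorting here, so stage, host and handling differ together and cannot be told apart in any comparison with the primary group.

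Libraries held 7932772 to 14093032 counts. Levels are given as CPM, counts per 1000000 counts of a library after TMM scaling, and a gene was called higher or lower when the Benjamini-Hochberg adjusted p of edgeR's quasi-likelihood test over all 9082 genes was under 0.05. The 6 neuroblast markers, none of them at 0 in any group, summed to 3455 to 4231 CPM per library. Among them mira and grh rose and dpn, ase, wor and l(1)sc fell in T0, and in T3 mira rose, dpn and ase fell and 3 were not called. Much of the neuroblast sum was mira, with means of 1832, 2489 and 2416 CPM in primary, T0 and T3. The clones also overexpress dpn, and reads of the transgene and of the endogenous gene were not told apart. The sum of 6 neuron markers was 753 to 1297 CPM in primary, 142 to 207 CPM in T0 and 99.9 to 147 CPM in T3, and all 6 fell in both transplanted stages. Much of the neuron sum was elav, with means of 648, 167 and 117 CPM in primary, T0 and T3. The sum of 8 hemocyte markers was 15.8 to 29.3 CPM in primary, with He at 0 counts, 88.7 to 386 CPM in T0 and 83.3 to 125 CPM in T3. Ppn made up much of it, with a mean of 170 CPM in T0 and 75.0 CPM in T3. Of 7 tested 5 rose and 0 fell in T0, and 5 rose and 1 fell (Pxn) in T3. The sum of 7 fat body markers was 19.8 to 22.2 CPM in primary, with Lsp2 at 0 counts, 103 to 250 CPM in T0 with Fbp1 at 0 counts, and 11.8 to 90.3 CPM in T3. Of 5 tested 4 rose and 0 fell in T0, and 3 rose and 1 fell (Apoltp) in T3. The part of these other cells in the heat shock gene results was not tested, and in bulk samples fewer cells of a type and less RNA per cell cannot be told apart.

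Heat shock gene transcripts were most abundant in the primary cells. The 10 genes together took 1.65%, 1.73% and 0.89% of all counts in primary replicates 1, 2 and 4. In T0 replicates 2, 3 and 4 they took 0.911%, 0.401% and 0.397%, and in T3 replicates 1, 2 and 4 they took 0.464%, 0.569% and 0.379%. The highest transplanted library thus lay just above the lowest primary library, and the other 5 transplanted libraries lay well below. Against primary, 6 of the 9 genes tested fell in T0 (Hsp27, Hsp67Ba, Hsp83, DnaJ-1, stv and Hsf), 0 rose and 3 were not called, while 23.2% of all genes tested were called lower, 22.4% higher and 45.6% in either direction. In T3 8 of the 9 fell, all but Hsf, against 24.1% of all genes called lower, 23.1% higher and 47.2% in either direction. The 3 libraries of a group lay wholly below primary for 5 of the 9 genes in T0 (Hsp27, Hsp67Ba, Hsp83, stv and Hsf), as for 27.4% of all genes, and for 9 of 9 in T3, as for 29.0% of all genes. The median log2 fold change over the 9 genes was -1.06 in T0 and -1.68 in T3, and that over all genes tested was 0.01 and 0.00. T3 and T0 share the primary libraries as their reference, so these counts are not separate evidence.

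**Figure D1:**
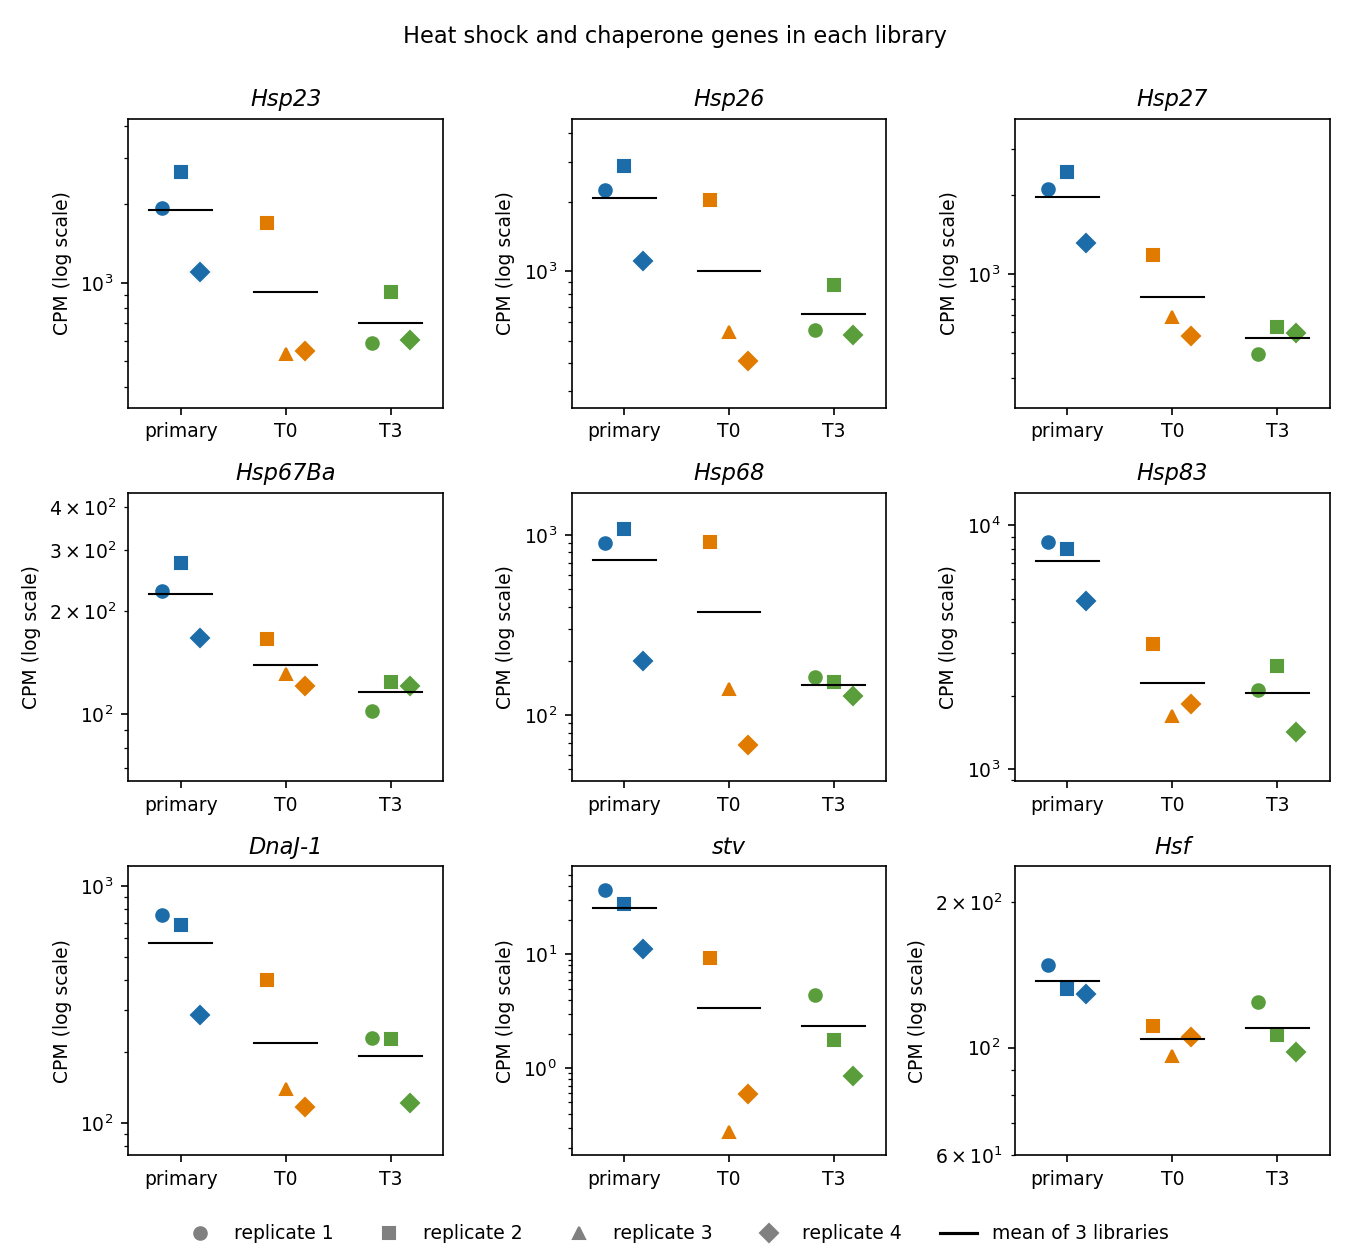
CPM of the 9 genes tested in each of the 9 libraries, on log axes that differ between panels. Points are libraries, their shape gives the replicate number, and bars are the mean of 3 libraries. Primary replicate 4 is the lowest primary library and T0 replicate 2 the highest T0 library in every panel, as for Hsp68 with 200 CPM against 904 and 1072 CPM, and 916 CPM against 139 and 68.6 CPM.

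Ranked per kb of exon, the most abundant transcript was that of Hsp83, with 2411 ± 662 CPM per kb in primary (mean ± SD, n = 3 libraries). Hsp23 at 2146 ± 888 and Hsp26 at 2069 ± 897 CPM per kb lay within that spread, and Hsp27 followed at 1201 ± 356 CPM per kb. A lower tier held Hsp68 at 325 ± 207, DnaJ-1 at 266 ± 118 and Hsp67Ba at 129 ± 31.4 CPM per kb, of which Hsp68 and DnaJ-1 lay within their spread. Hsf reached 46.9 ± 3.59 and stv 6.89 ± 3.58 CPM per kb, each apart from its neighbours by more than the spread. In T0 Hsp23 led with 1044 ± 753 CPM per kb, followed by Hsp26 with 994 ± 906, Hsp83 with 760 ± 295 and Hsp27 with 500 ± 199 CPM per kb, and neighbours among these 4 lay within their spread. In T3 the same 4 genes spanned 350 ± 43.0 (Hsp27) to 796 ± 216 (Hsp23) CPM per kb, and the other genes spanned 0.637 ± 0.501 (stv) to 89.0 ± 28.1 (DnaJ-1) CPM per kb.

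The small heat shock protein genes Hsp23, Hsp26, Hsp27 and Hsp67Ba lie with Hsp22 and Hsp67Bc in the 67B gene cluster on chromosome arm 3L between 9371511 and 9385694 (dm6, Ensembl annotation), a stretch of 14184 bp with 9 annotated genes. Hsp26 lies at 9376418 to 9377427, Hsp67Ba at 9377802 to 9379534, Hsp23 at 9381882 to 9382765 and Hsp27 at 9384063 to 9385694, each with a single exon block. Within this cluster the calls were not uniform.

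Hsp27, an ATP-independent holdase found largely in the nucleus, was at 2112, 2449 and 1318 CPM in primary replicates 1, 2 and 4, at 1186, 683 and 580 CPM in T0 replicates 2, 3 and 4, and at 494, 629 and 593 CPM in T3 replicates 1, 2 and 4. Every primary library lay above every transplanted library. It fell from 1960 ± 580 CPM to 816 ± 324 CPM in T0 (log2 fold change -1.26 ± 0.28 SE, adjusted p = 0.0032) and to 572 ± 70.1 CPM in T3 (-1.78 ± 0.29, adjusted p = 0.000351). Both calls held when any single library was left out.

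Hsp67Ba, a small heat shock protein gene known from its developmental expression, was at 228, 276 and 167 CPM in primary, at 165, 131 and 121 CPM in T0 and at 102, 124 and 121 CPM in T3, libraries in the same order. Primary lay above both stages without overlap, though the lowest primary and the highest T0 library nearly met, and T0 and T3 overlapped. It fell by 0.69 ± 0.19 on the log2 scale in T0 (adjusted p = 0.00972) and by 0.95 ± 0.19 in T3 (adjusted p = 0.00145). Its 1 exon shares 1316 bases with the antisense RNA gene CR43481 on the opposite strand, which was at 204, 226 and 143 CPM in primary, at 149, 126 and 105 CPM in T0 and at 94.5, 116 and 108 CPM in T3. The strand setting of the counting is not given in the sources used here, so reads of the sense and the antisense transcript cannot be told apart.

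Hsp23 and Hsp26, cytosolic small heat shock proteins that bind unfolding proteins, differed more between libraries. Hsp23 was at 1931, 2665 and 1096 CPM in primary, at 1691, 531 and 546 CPM in T0 and at 586, 923 and 602 CPM in T3. Hsp26 was at 2266, 2895 and 1109 CPM in primary, at 2058, 547 and 408 CPM in T0 and at 554, 870 and 527 CPM in T3. For both genes T0 replicate 2 reached into the range of the primary group, the other T0 libraries lay below every primary library, and the T3 libraries lay below the primary group throughout.

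Hsp23 had a log2 fold change of -1.04 ± 0.43 in T0 (adjusted p = 0.0685, not called) and fell by 1.43 ± 0.44 in T3 (adjusted p = 0.018). In the authors' deposited table the T0 difference of Hsp23 has the same log2 fold change, -1.04, with an adjusted p of 0.0221. Hsp26 had a log2 fold change of -1.06 ± 0.52 in T0 (adjusted p = 0.119, not called) and fell by 1.68 ± 0.53 in T3 (adjusted p = 0.0211). Without T0 replicate 2 both were called in T0, with log2 fold changes of -1.81 (adjusted p = 0.00125) for Hsp23 and -2.13 (adjusted p = 0.000896) for Hsp26, and without primary replicate 4 Hsp23 was called in T0 at -1.32 (adjusted p = 0.0378). Hsp23 in T0 also passed with limma-voom (adjusted p = 0.0478), with library totals in place of scaling factors (0.0484) and with no filter (0.000658), and Hsp26 with no filter (0.00165). In T3 the Hsp23 call was lost without primary replicate 2 (adjusted p = 0.0823), T3 replicate 1 (0.0655) or T3 replicate 4 (0.054). The Hsp26 call in T3 was lost without primary replicate 1 (adjusted p = 0.0571), primary replicate 2 (0.0824), T3 replicate 1 (0.0698) or T3 replicate 4 (0.0623), with log2 fold changes of -1.60 to -1.37 in these fits.

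Hsp22, whose product acts in mitochondria, had 0 counts in all 9 libraries. A floor of 3 counts corresponds to 0.219 to 0.377 CPM per library, which covers counting error only. All 1900 exon bases of Hsp22 (3L, 9372931 to 9374964) lie within exons of CG4456, a gene on the same strand with the synonym Hsp67Bb, and the deposited Hsp67Bb symbol has 1 count over all 9 libraries. Reads that overlap both genes may not have been assigned to either, so the value of 0 cannot be read as absence of the transcript.

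The neighbouring Hsp67Bc, a small heat shock protein gene linked to autophagy, changed most of the small heat shock protein genes tested. It was at 77.7, 71.6 and 27.6 CPM in primary, at 3.85, 0.549 and 0.882 CPM in T0 and at 1.03, 1.13 and 0.513 CPM in T3. All transplanted libraries were far below the lowest primary library. Its log2 fold changes were -5.16 ± 0.58 (adjusted p = 2.9e-05) and -6.06 ± 0.62 (adjusted p = 1.3e-05). CG14207, a gene with the synonym HspB8, lies outside the cluster. It fell from 82.2 ± 6.52 CPM to 52.0 ± 7.77 CPM in T0 (-0.66 ± 0.15, adjusted p = 0.00325) and to 58.1 ± 7.70 CPM in T3 (-0.50 ± 0.15, adjusted p = 0.0143). Of 12 small heat shock protein symbols 6 were tested, of which 4 fell in T0 and 6 fell in T3, with medians of -1.05 and -1.56, and 0 rose. Each of the remaining 6 symbols, Hsp22 and Hsp67Bb among them, had at most 40 counts over all libraries.

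Hsp68 (3R, 24055080 to 24057310) encodes a stress-inducible Hsp70 family protein. It was at 904, 1072 and 200 CPM in primary, at 916, 139 and 68.6 CPM in T0 and at 163, 152 and 128 CPM in T3. Primary replicate 4 lay closer to the T3 libraries and T0 replicates 3 and 4 than to its own group. T0 replicate 2 lay at the level of the high primary libraries. The T3 libraries were close together and below all primary libraries. Its highest T0 library exceeded its lowest by 13.4 times, against a median of 1.33 over all genes tested, and its highest primary library exceeded its lowest by 5.36 times, against a median of 1.36. In T3 that ratio was 1.27, against a median of 1.30.

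Hsp68 was not called in T0, where it averaged 374 ± 470 CPM against 725 ± 462 CPM for the primary libraries (log2 fold change -0.96 ± 0.77, adjusted p = 0.333). In T3 it fell to 147 ± 17.8 CPM (-2.30 ± 0.80, adjusted p = 0.0327). Without T0 replicate 2 it was called in T0 at -2.80 (adjusted p = 0.00249), and with no filter it passed as well (adjusted p = 0.0236). The T3 call was lost without primary replicate 1, primary replicate 2 or any 1 of the T3 libraries, with an adjusted p of 0.0746 to 0.106 and log2 fold changes of -2.37 to -1.90, and with limma-voom (adjusted p = 0.0612).

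The Hsp70 genes, the classical heat-inducible chaperones, are near-identical copies among which reads are not assigned uniquely, so values of single copies are uncertain. Summed over 6 copies they were at 408, 350 and 188 CPM in primary, at 308, 114 and 71.8 CPM in T0 and at 107, 111 and 103 CPM in T3. As with Hsp68, primary replicate 4 was the lowest primary and T0 replicate 2 the highest T0 library, and only T3 lay wholly below primary. The sum had a log2 fold change of -0.94 ± 0.43 in T0 (adjusted p = 0.0893) and fell by 1.56 ± 0.43 in T3 (adjusted p = 0.0107). Of the single copies Hsp70Bb, with 231 ± 60.7 CPM in primary, fell by 1.01 ± 0.32 in T0 (adjusted p = 0.0217) and by 1.45 ± 0.32 in T3 (adjusted p = 0.00316). Hsp70Ba had -1.14 ± 0.64 in T0 (adjusted p = 0.169) and fell by 1.94 ± 0.66 in T3 (adjusted p = 0.0304). Hsp70Bbb and Hsp70Bc were called in neither stage, with -0.91 and -0.37 in T0 and -2.11 and -1.87 in T3, and Hsp70Aa and Hsp70Ab had 0 and 3 counts over all libraries. Of the 5 inducible genes tested, Hsp68 included, 1 fell in T0 and 3 fell in T3, and without T0 replicate 2 all 5 fell in both.

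The constitutive relatives of Hsp68 were steadier between libraries. Hsc70-4, the main cytosolic Hsp70 of unstressed cells, was at 7571, 7740 and 6921 CPM in primary, at 7174, 7001 and 6377 CPM in T0 and at 5474, 7148 and 6237 CPM in T3. The groups overlapped, and its log2 fold changes were -0.11 ± 0.17 (adjusted p = 0.619) and -0.24 ± 0.17 (adjusted p = 0.275). Hsc70Cb, the Hsp110 that exchanges nucleotide on Hsp70, fell from 789 ± 81.9 CPM to 398 ± 50.1 CPM in T0 (-0.99 ± 0.15, adjusted p = 0.000241) and to 350 ± 19.1 CPM in T3 (-1.17 ± 0.15, adjusted p = 6.22e-05). The mitochondrial Hsc70-5 also fell, by 0.87 ± 0.18 (adjusted p = 0.00184) and 0.64 ± 0.18 (adjusted p = 0.0105). Hsc70-3, the Hsp70 of the endoplasmic reticulum, was not called, at -0.15 ± 0.29 and -0.62 ± 0.29. Of 4 constitutive genes tested 2 fell in each stage and 0 rose.

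**Figure D2:**
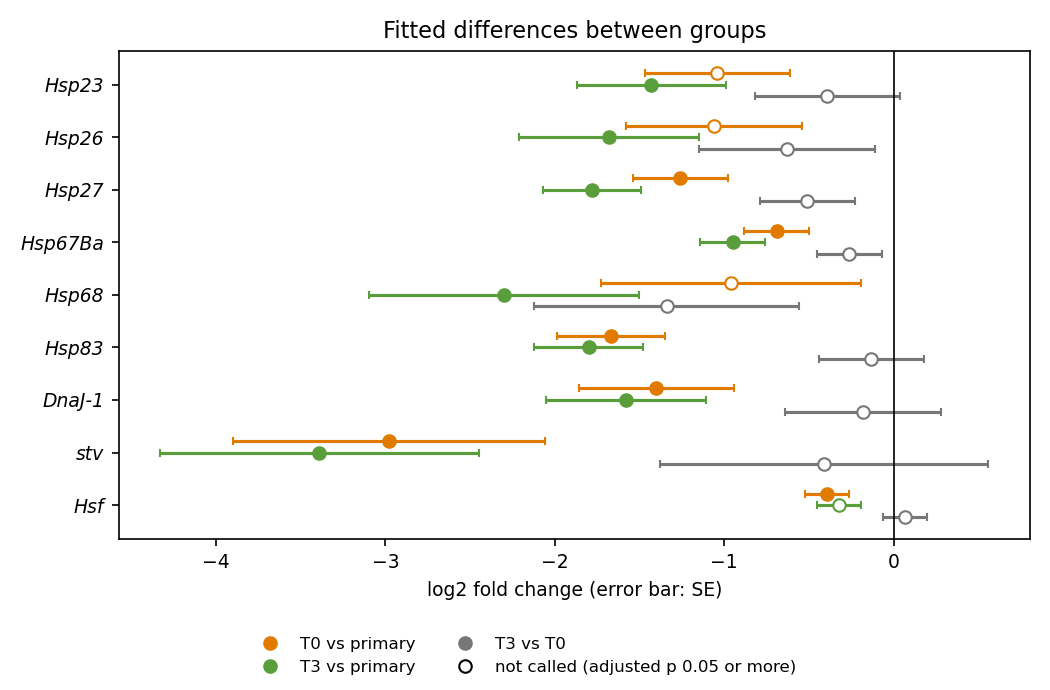
Log2 fold changes of the 9 genes tested in the 3 comparisons, with SE as error bars. Filled points are called and open points are not: T0 against primary runs from -2.98 (stv) to -0.39 (Hsf), T3 against primary from -3.39 (stv) to -0.32 (Hsf), and no gene is called between T3 and T0.

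Hsp83 (3L, 3192969 to 3197059), the cytosolic Hsp90, is expressed in unstressed cells and induced further by heat. It was at 8536, 7973 and 4898 CPM in primary, at 3249, 1649 and 1848 CPM in T0 and at 2104, 2640 and 1422 CPM in T3. The lowest primary library stood well above the highest transplanted library. On its own Hsp83 took 0.83%, 0.758% and 0.473% of all counts in primary replicates 1, 2 and 4, 0.169% to 0.303% in T0 and 0.149% to 0.265% in T3. It fell from 7136 ± 1958 CPM to 2249 ± 872 CPM in T0 (log2 fold change -1.67 ± 0.32, adjusted p = 0.00116) and to 2055 ± 611 CPM in T3 (-1.80 ± 0.32, adjusted p = 0.000681). Both calls held when any single library was left out.

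Several partners of Hsp90 were lower too. Hop, which bridges Hsp70 and Hsp90, was at 450, 443 and 379 CPM in primary, at 230, 167 and 187 CPM in T0 and at 201, 229 and 171 CPM in T3, with no overlap between primary and either stage. Its log2 fold changes were -1.12 ± 0.16 (adjusted p = 0.000197) and -1.08 ± 0.16 (adjusted p = 0.00022). The kinase-client adaptor Cdc37 fell by 0.70 ± 0.16 (adjusted p = 0.00401) and 0.75 ± 0.16 (adjusted p = 0.00247), and CG16817, the p23 relative, by 0.70 ± 0.16 (adjusted p = 0.0042) and 0.47 ± 0.16 (adjusted p = 0.0338). CHIP, a ubiquitin ligase that tags chaperone-bound proteins for degradation, went the other way and rose from 40.4 ± 5.62 CPM to 61.5 ± 4.83 CPM in T0 (0.61 ± 0.15, adjusted p = 0.00488) and to 73.3 ± 9.85 CPM in T3 (0.86 ± 0.15, adjusted p = 0.000513). The myosin chaperone gene unc-45 and the mitochondrial Hsp90 gene Trap1 were not called in either stage, at 0.20 and -0.12 in T0 and 0.14 and -0.11 in T3. Of the 10 genes of the Hsp90 list, Hsp83 included, 6 fell and 1 rose in each stage, with medians of -0.47 and -0.46.

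DnaJ-1 (3L, 5750029 to 5752189) encodes the heat-inducible Hsp40 that delivers substrates to Hsp70. It was at 755, 685 and 284 CPM in primary, at 399, 139 and 117 CPM in T0 and at 229, 226 and 122 CPM in T3. Primary replicate 4 lay below T0 replicate 2, so primary and T0 overlapped, whereas T3 lay wholly below primary. It fell from 575 ± 254 CPM to 218 ± 157 CPM in T0 (log2 fold change -1.40 ± 0.46, adjusted p = 0.0266) and to 192 ± 60.7 CPM in T3 (-1.58 ± 0.47, adjusted p = 0.0149). The T0 call was lost without primary replicate 1 (adjusted p = 0.0926), primary replicate 2 (0.0827), T0 replicate 3 (0.08) or T0 replicate 4 (0.0872), and without T0 replicate 2 the log2 fold change was -2.17 (adjusted p = 0.00114). The T3 call was lost without primary replicate 1 (adjusted p = 0.0612), primary replicate 2 (0.0505) or T3 replicate 4 (0.0519).

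Among other J-domain genes, jdp was at 26.2, 38.2 and 39.0 CPM in primary, at 0.906, 0.183 and 0.367 CPM in T0 and at 0.0733, 0.126 and 0.171 CPM in T3, log2 fold changes of -6.20 ± 0.40 (adjusted p = 5.18e-07) and -8.04 ± 0.47 (adjusted p = 2.31e-07). It rested on 15 counts in all of T0 and 4 counts in all of T3. Unlike DnaJ-1, jdp was not lower in primary replicate 4 than in the other primary libraries. The general Hsp40 gene Droj2 fell by 0.56 ± 0.15 (adjusted p = 0.00873) and 0.61 ± 0.15 (adjusted p = 0.00526), and the mitochondrial l(2)tid by 0.53 ± 0.18 (adjusted p = 0.0291) and 0.83 ± 0.18 (adjusted p = 0.00246). Csp, a J-domain protein of synaptic vesicles, had -0.40 ± 0.17 in T0 (adjusted p = 0.0644, not called) and fell by 0.61 ± 0.17 in T3 (adjusted p = 0.00928). Of 9 J-domain genes tested 4 fell in T0 and 5 in T3, and 0 rose.

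stv (3L, 13477541 to 13483515), the starvin gene, encodes the BAG-domain cochaperone that releases nucleotide from Hsp70 and is known for its role in muscle and in selective autophagy. It was at 37.1, 27.6 and 11.2 CPM in primary, at 9.28, 0.275 and 0.588 CPM in T0 and at 4.40, 1.76 and 0.855 CPM in T3. Primary lay above both stages, T0 and T3 overlapped, and within T0 replicate 2 exceeded the others many times over. With 93 counts in all of T0 and 84 in all of T3, against 970 in primary, the transplanted levels are imprecise, and T0 replicate 3 held 3 counts (0.275 CPM). It fell from 25.3 ± 13.1 CPM to 3.38 ± 5.11 CPM in T0 (log2 fold change -2.98 ± 0.92, adjusted p = 0.0193) and to 2.34 ± 1.84 CPM in T3 (-3.39 ± 0.94, adjusted p = 0.0109).

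The T0 value of stv was -5.80 (adjusted p = 0.000176) without T0 replicate 2 and -2.43 (adjusted p = 0.039) without T0 replicate 3, and its call was lost without primary replicate 1 (adjusted p = 0.0689), primary replicate 2 (0.0525) or T0 replicate 4 (0.0543). Its T3 call held without any single library, with -4.31 (adjusted p = 0.0133) when T3 replicate 1 was left out. The other gene of this role, CG10420, the fly Sil1 of the endoplasmic reticulum, had 13.4 ± 1.15 CPM in primary, 13.7 ± 1.65 in T0 and 14.3 ± 4.55 in T3, and was not called in either stage. Muscle markers, 8 genes, summed to 14.3 to 24.5 CPM in primary, with up at 0 counts, to 5.04 to 12.2 CPM in T0 and to 4.78 to 8.63 CPM in T3. Of the 5 tested bt fell in both stages, from 9.19 to 19.1 CPM in primary to 1.10 to 3.31 CPM in T0 and 0.256 to 1.10 CPM in T3, and the other 4 were not called. The part of muscle cells in the stv result was not tested.

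Hsf (2R, 18130303 to 18134634), the heat shock transcription factor itself, is controlled mainly at the level of its protein. Its transcript was at 148, 132 and 129 CPM in primary, at 111, 96.0 and 105 CPM in T0 and at 124, 106 and 98 CPM in T3. All primary libraries lay above all transplanted libraries, but by a narrow margin. It fell from 137 ± 10.4 CPM to 104 ± 7.64 CPM in T0 (log2 fold change -0.39 ± 0.13, adjusted p = 0.0282), and at 110 ± 13.4 CPM in T3 it was not called (-0.32 ± 0.13, adjusted p = 0.0647). The T0 call was lost without primary replicate 1 (adjusted p = 0.0741), T0 replicate 3 (0.105) or T0 replicate 4 (0.0722), and with no filter (0.0508) or library totals (0.0713). In T3 Hsf was called without T3 replicate 1 at -0.41 (adjusted p = 0.0434) and by DESeq2 at -0.33 (adjusted p = 0.0415). Hsromega, a heat-inducible nuclear noncoding RNA, was at 433, 399 and 316 CPM in primary, at 1014, 317 and 229 CPM in T0 and at 367, 322 and 217 CPM in T3. T0 replicate 2 exceeded every other library, and the gene was not called, with 0.44 ± 0.43 and -0.34 ± 0.43.

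**Figure D3:**
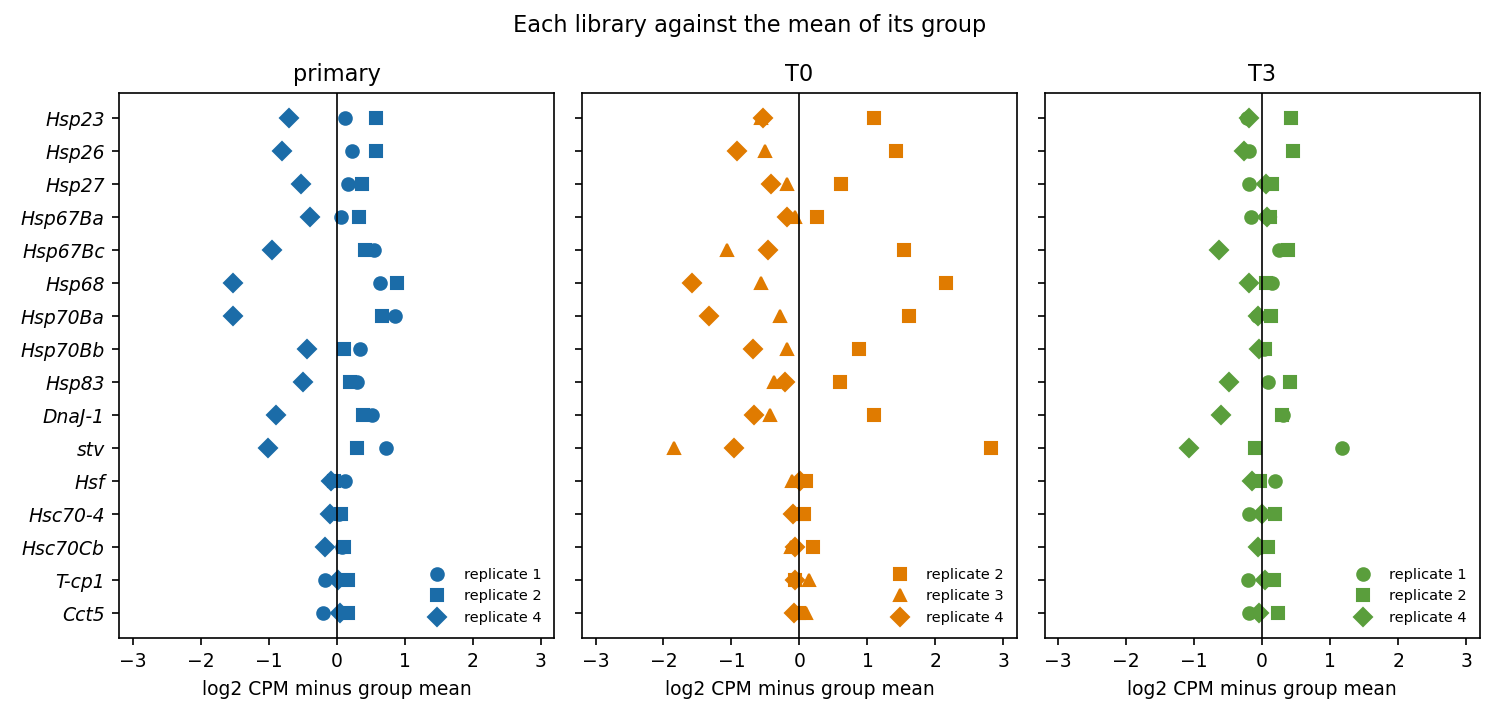
Log2 CPM of each library minus the mean of its own group, for 12 heat shock and cofactor genes and, at the bottom, 4 constitutive chaperone or chaperonin genes (Hsc70-4, Hsc70Cb, T-cp1 and Cct5). Primary replicate 4 and T0 replicate 2 stand apart for most of the upper genes, at -1.53 and 2.15 for Hsp68, and lie near 0 for Hsf and the bottom 4 genes.

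The order of libraries within groups was shared by these genes. Primary replicate 4 was the lowest primary library for 9 of the 9 genes tested, as it was for 25.4% of all genes tested. It lay below both others by more than 1.5 times for 7 of the 9, all but Hsp67Ba and Hsf, and for 3.06% of all genes. T0 replicate 2 was the highest T0 library for 9 of 9, as for 40.1% of all genes, and exceeded both others by more than 1.5 times for 7 of 9, as for 12.4% of all genes, and by more than 2 times for Hsp23, Hsp26, Hsp68, DnaJ-1 and stv, as for 5.96% of all genes. The genes share libraries, so these counts describe 2 libraries and not 9 separate events.

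Other lists followed that order to different extents. All 4 constitutive Hsp70 and Hsp110 genes tested had their lowest primary level in replicate 4 and their highest T0 level in replicate 2, with Hsc70-3 more than 2 times above both other T0 libraries. For chaperonins T0 replicate 2 exceeded both other T0 libraries by more than 1.5 times in 0 of 10 genes, and primary replicate 4 lay that far below the other primary libraries in 0 of 10. Of 12 genes for folding in the endoplasmic reticulum 11 were highest in T0 replicate 2, and 7 exceeded that ratio there. Hemocyte markers did so for 4 of 7 genes tested, fat body markers for 4 of 5, and germline and ovary markers for 4 of 5, with sums of 386, 250 and 92.6 CPM in T0 replicate 2 against 88.7 to 249, 103 to 133 and 17.7 to 39.5 CPM in the other T0 libraries. Of the 8 germline and ovary markers Vm26Aa was at 0 counts in T0. Their part in the high heat shock gene levels of T0 replicate 2 was not tested. In primary replicate 4 no hemocyte, fat body, muscle, neuron, glia or neuroblast marker tested lay below both other libraries by more than 1.5 times, and 1 of 5 germline and ovary markers (vas) did. Its cell make-up was not the same, however. The 6 glia markers summed to 633 CPM there against 427 and 499 CPM in primary replicates 1 and 2, and 0 of the 6 were lowest there. Among them alrm was at 42.7 CPM against 9.63 and 19.5 CPM, and repo at 16.5 CPM against 6.86 and 7.34 CPM. The part of glia in the low heat shock gene levels of that library was not tested.

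With both primary replicate 4 and T0 replicate 2 left out, a choice made after seeing these values, all 9 genes tested fell in T0 and 8 in T3. Among all genes, 1624 of 9310 tested fell in T0 and 2102 of 9310 in T3. The 2 libraries were the lowest primary and the highest T0 library for all 9 genes. Wider T0 differences therefore follow from the choice and are not separate support. The median log2 fold change of the 9 was then -2.24 in T0 and -1.98 in T3. Hsp68 reached -3.25 (adjusted p = 7.56e-05), DnaJ-1 -2.49 (adjusted p = 0.00019) and Hsp83 -2.24 (adjusted p = 0.000315) in T0. Leaving out T0 replicate 2 alone also gave 9 of 9 in T0, where 1934 of 9357 genes tested fell. Leaving out primary replicate 4 alone gave 7 of 9, where 1817 of 9390 genes tested fell.

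T3 was compared with T0 to ask whether further rounds of transplantation changed these genes. Of the 9 genes 0 were called, in either direction, as were 0.0% of all genes tested by edgeR, while 746 of all genes (8.21%) had an unadjusted p under 0.05 and DESeq2 called 13, none of them among the 9. Hsp68 had the widest difference, -1.34 ± 0.78 (adjusted p = 0.621), followed by Hsp26 with -0.63 ± 0.52 (adjusted p = 0.712) and Hsp27 with -0.51 ± 0.28 (adjusted p = 0.612). Hsp83 was at -0.13 ± 0.31 and Hsf at 0.07 ± 0.13, each within its SE. T3 and T0 libraries overlapped for all 9 genes, whereas T3 lay wholly below T0 for 7.78% and wholly above it for 7.33% of all genes. Without T0 replicate 2 the sign turned for 6 of them, to 0.51 for Hsp68, 0.45 for Hsp26, 0.39 for Hsp23, 0.23 for Hsp83, 0.59 for DnaJ-1 and 2.41 for stv, again with none called.

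Over all chaperone genes the direction seen in the 10 was frequent but not general. Of 61 chaperone symbols that are not among the 10, in lists chosen by role, 49 were tested. Of these, 24 fell and 3 rose in T0 (median log2 fold change -0.47), and 28 fell and 3 rose in T3 (median -0.56). Among all genes tested, 23.2% fell and 22.4% rose in T0, and 24.1% fell and 23.1% rose in T3. The most even list was that of the chaperonins, the ring-shaped chambers that fold actin, tubulin and mitochondrial proteins, of which 10 of 10 tested fell in each stage. CG8258, the eighth subunit of the cytosolic ring, was at 493, 618 and 557 CPM in primary, at 298, 317 and 299 CPM in T0 and at 251, 348 and 281 CPM in T3. Primary lay wholly above both stages, with log2 fold changes of -0.87 ± 0.15 (adjusted p = 0.000791) and -0.92 ± 0.16 (adjusted p = 0.000473). The Tcp-1eta subunit fell by 0.76 ± 0.14 and 0.77 ± 0.14 (adjusted p = 0.000794 and 0.000737), Cctgamma by 0.83 ± 0.15 and 0.90 ± 0.15 (adjusted p = 0.000988 and 0.000532), and CG11267, the mitochondrial Hsp10, by 0.89 ± 0.17 and 0.57 ± 0.17 (adjusted p = 0.00126 and 0.0164). Without both libraries named above 8 of 10 fell in T0 and 9 of 10 in T3.

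Chaperones of the endoplasmic reticulum and genes of the unfolded protein response, which reports misfolded protein in that compartment, were mixed. Of 12 tested 2 rose and 1 fell in T0, and 2 rose and 4 fell in T3. Among all genes, 22.4% rose and 23.2% fell in T0, and 23.1% rose and 24.1% fell in T3. Xbp1, the transcription factor of that response, was at 273 ± 11.2 CPM in primary and rose to 537 ± 207 CPM in T0 (0.98 ± 0.26, adjusted p = 0.0083) and to 666 ± 177 CPM in T3 (1.29 ± 0.26, adjusted p = 0.00161). Edem1, which sends misfolded glycoproteins to degradation, rose by 0.79 ± 0.14 (adjusted p = 0.00071) and 0.51 ± 0.14 (adjusted p = 0.0101). The lectin chaperone gene Cnx99A fell by 0.79 ± 0.19 (adjusted p = 0.00495) and 1.39 ± 0.19 (adjusted p = 0.000116). Without T0 replicate 2, 6 of the 12 fell in T0 in place of 1.

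**Figure D4:**
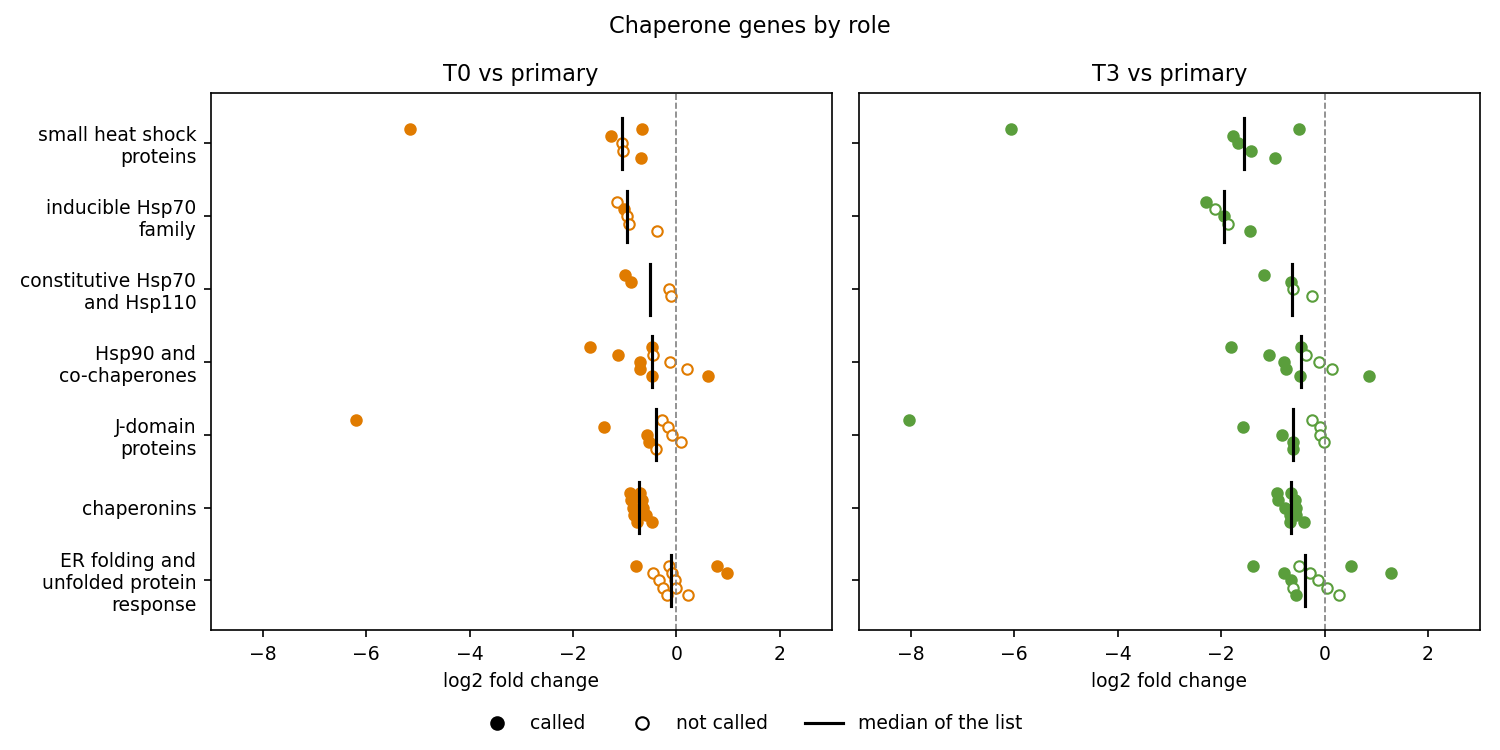
Log2 fold changes of tested chaperone genes in 7 role lists (the lists of stv and of Hsf, with 2 genes each, are not drawn), T0 against primary at left and T3 against primary at right. Points are genes, filled where called, and vertical bars are the list medians, which run from -1.05 for small heat shock proteins to -0.11 for genes of the endoplasmic reticulum in T0 and from -1.94 for the inducible Hsp70 family to -0.38 in T3.

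Immediate-early genes, which dissociation and sorting can also induce, moved in both directions. The summed level of 6 was 178 to 223 CPM in primary, 179 to 214 CPM in T0 and 212 to 310 CPM in T3, and these sums overlapped. Single genes differed widely beneath the sum. The gene sr fell from 26.1 CPM in primary to 0.265 CPM in T0 and 0.102 CPM in T3, on 9 and 4 counts. Hr38 fell from 21.9 to 2.57 and 2.78 CPM, while kay rose from 47.4 to 89.7 and 92.0 CPM. Jra fell in T0 only, and cbt and puc rose in T3 only. Of the 6, 1 rose and 3 fell in T0, and 3 rose and 2 fell in T3. The shares over all genes were 22.4% and 23.2% in T0, and 23.1% and 24.1% in T3. In primary replicate 4, 1 of the 6 was at its lowest primary level. The part of dissociation and sorting in the heat shock gene levels of the primary group was not tested.

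The genes most like each of the 9 over the 9 libraries were found by the root mean square difference of log2 CPM, each gene centred on its own mean, over 9081 other genes. Hsp23 and Hsp26 were nearest to each other, at 0.20. After that came mael (0.29) and Hsp70Bb (0.30) for Hsp23, and DnaJ-1 (0.30) and spz (0.32) for Hsp26. Hsp68 was nearest to Hsp70Ba (0.30) and Hsp70Bc (0.48), and then to Hsp26 (0.50). Next to DnaJ-1 came lama (0.25), Hsp26 (0.30) and Hsp83 (0.32), and next to Hsp83 came asparagine-synthetase (0.26), CG7860 (0.29) and Hsp27 (0.31).

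Hsp27 was nearest to CG17278 (0.20), Hsp70Bb (0.23) and CG15449 (0.24). Hsp67Ba was nearest to its overlapping antisense gene CR43481 (0.07), followed by CG9723 (0.14) and sgl (0.17). The nearest of the other 8 genes to Hsp67Ba, Hsf at 0.34, ranked only 793. For stv no gene was closer than Rab3-GEF at 0.64, followed by beat-IIIc (0.74) and nrm (0.75). The nearest of the other 8 genes to stv, Hsp68 at 1.22, ranked 159. Hsf was nearest to Arpc2, Oscillin and CG5815, each at 0.08, and the nearest of the other 8 genes, Hsp67Ba, was only at 0.34. These distances are descriptions over 9 libraries, in which the difference between primary and the transplanted stages is shared by many genes.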

How the data were processed

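RNA-seq of polyadenylated transcripts was done on 9 libraries made with 13 PCR cycles and read as single reads of 75 nt, per the labels' protocols. HISAT2 2.1.0, bedtools 2.25.0, HTSeq, edgeR and the build dm6 are named in the submitters' processing notes. For the annotation release and strand setting, the sources used here give nothing. There are 3 tables, deposited by the authors with the same raw counts of 16727 gene symbols, and 0 table rows lacked a gene name. These counts carried all tests. The log2 fold changes and adjusted p-values of the authors' deposited tables are printed for Hsp23 only. Another 9 normalised per-sample columns per table were not used.

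Counts were fitted with edgeR 4.0.16 in R 4.3.3 (filterByExpr at a minimum count of 10, TMM scaling, 1 mean per group over all 9 libraries, two-sided quasi-likelihood test, Benjamini-Hochberg adjustment over all 9082 genes tested). SE is the log2 fold change divided by the square root of F. The script was tested on simulated data. Levels per kb divide CPM by the merged exon length in Ensembl release 115, which also gave positions in dm6. Of 128 list symbols, 21 were matched through synonyms. Within groups, replicate pairs gave 14.9 to 75.9 as chi-square over degrees of freedom, so no library repeats another. The labels do not say whether replicates were separate crosses, so the p-values set group differences only against the spread between these pools.

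Named were all 10 genes, the Hsp70 copies, up to 4 called and 2 uncalled genes per role list with the smallest p, and the 3 genes nearest in pattern. CR43481 and Hsp67Bb were added for their overlaps, and some list genes were left out for length. The genes, role lists and comparisons were chosen with earlier results of these data known. Alternatives were RLE, upper-quartile and no scaling factors, no filter, a CPM filter, DESeq2 1.42.0, limma-voom (limma 3.58.1), a replicate block, a test against a 1.5-fold change, fits on 2 groups and leaving out each library. No sequence is printed, since no sequence table was used here.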

Additional observations from a re-analysis of the deposited data

How the results depend on the processing

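No call of the 9 genes turned its direction against primary under any alternative run. Of 180 results per comparison (9 genes, 20 alternatives), 150 kept their side of the threshold in T0 and 158 in T3, 14 and 2 passed it newly, and 16 and 20 no longer passed it. Hsp27 and Hsp83 were called in both stages under every alternative, and Hsp67Ba in all but the test against a 1.5-fold change in T0 (adjusted p = 0.344). That test called 3 of the 9 genes in T0 in place of 6 and 4 in T3 in place of 8, and 1898 of all genes in place of 4144 and 2006 in place of 4284. With single libraries left out, 3 to 9 of the 9 were called in T0 and 4 to 8 in T3. The lowest counts came without primary replicate 1 or T0 replicate 4 (3 in T0) and without primary replicate 2 or T3 replicate 4 (4 in T3). With all 9 libraries 45.6% of all genes were called in T0 and 47.2% in T3. The lowest counts of the 9 genes did not exceed these shares. Of all genes, 3985 were called in T0 without primary replicate 1, in place of 4144. Without both primary replicate 4 and T0 replicate 2, chosen after seeing the values, the count in T0 was 9. Library totals without scaling factors moved the median of all genes by 0.109 in T3 against primary, and gave Hsf -0.34 in T0 (adjusted p = 0.0713).

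Between T3 and T0 the count of all genes called was 0, and 96 with no filter, 13 with DESeq2, 5 with the replicate block and 0 to 5 with single libraries left out (5 without T3 replicate 2). None was among the 9 genes. With single libraries left out, the T3 against T0 log2 fold changes ran from -0.66 to 0.39 for Hsp23, -1.0 to 0.45 for Hsp26, -1.84 to 0.51 for Hsp68, -0.35 to 0.23 for Hsp83, -0.48 to 0.59 for DnaJ-1, -1.33 to 2.41 for stv and -0.02 to 0.15 for Hsf. The sign of these uncalled differences turned in 18 fits: without both libraries for Hsp23 (0.39), Hsp26 (0.45), Hsp68 (0.51), Hsp83 (0.24), DnaJ-1 (0.60) and stv (2.41), in the same 6 genes without T0 replicate 2, without T3 replicate 4 for Hsp83 (0.08), DnaJ-1 (0.07) and stv (0.01), without T3 replicate 1 for Hsf (-0.02), with limma-voom for stv (0.88) and with the replicate block for Hsf (-0.06). The cause was not tested.

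Deviations from the group means had correlations of -0.057 to 0.256 between same-numbered libraries and of -0.445 to 0.331 between the others. Not every library correlated best with its own number, so the numbers were not taken as pairs. These values do not settle whether the numbers mark pairs. With the replicate block 7 of the 9 genes were called in T0 and 8 in T3, and of all genes 3799 were called in T0 in place of 4144. In T0 Hsp23 (-0.91, adjusted p = 0.0144) and Hsp26 (-1.02, adjusted p = 0.0256) were gained and Hsf (-0.26, adjusted p = 0.202) was lost. Precision is limited by 3 libraries per group, and for stv, jdp and Hsp67Bc by few counts in the transplanted masses.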
